A study of Homo sapiens with 15 samples.

Results

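The transcripts of ZBTB18 and of 9 genes for the corepressor machinery it works with were followed across 15 RNA libraries from SNB19, a human glioblastoma cell line. The 10 genes were chosen by name, 10 of the 18485 gene symbols counted: ZBTB18, the corepressors CTBP1 and CTBP2, the histone demethylase KDM1A (the protein LSD1), its partner RCOR1 (CoREST), the histone deacetylases HDAC1 and HDAC2, the histone methyltransferase EHMT2 (G9a), and the MYM-type zinc finger genes ZMYM2 and ZMYM3. SNB19 cells were transduced with lentiviral vectors, with 3 libraries in each of 5 groups. The groups carried a mutant of a ZBTB18 short form (SF-mut), that short form (SF-Nte), a mutant of the full-length protein (FL-mut), the full-length protein (FL) or the empty vector pCHMWS (EV). All 5 groups share the cell line, the vector backbone and the medium, DMEM with 10% FBS. The labels name neither the mutated residues nor the meaning of Nte, and they do not say whether the 3 libraries of a group came from separate cultures, so each p-value measures only the spread between these libraries.

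ZBTB18, also called RP58, is a transcriptional repressor with a BTB domain for protein contacts and zinc fingers that bind DNA. CtBP proteins are corepressors that many zinc finger repressors recruit. CtBP complexes bring together LSD1, which removes methyl groups from histone H3, CoREST, which couples LSD1 to nucleosomes, the deacetylases HDAC1 and HDAC2, the methyltransferase G9a, and MYM-type zinc finger proteins. ZBTB18 is known for roles in neuronal differentiation and as a gene that is often low in glioblastoma. Transcript levels were measured here, not the proteins or the complex they form.

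ZBTB18 binds DNA at sites with the core CATCTG, so the promoters of the 10 genes were searched for it. Shown are the upstream windows, 250 bases ending just before an annotated start, of ZBTB18 itself, of ZMYM3, the partner whose transcript differed, and of HDAC1, a partner whose transcript did not pass the test. They come from RefSeq (GRCh38.p14), 5′ to 3′ on the strand of the gene, and capitals mark the core.
ZBTB18 at chr1:244048403-244048652, plus strand: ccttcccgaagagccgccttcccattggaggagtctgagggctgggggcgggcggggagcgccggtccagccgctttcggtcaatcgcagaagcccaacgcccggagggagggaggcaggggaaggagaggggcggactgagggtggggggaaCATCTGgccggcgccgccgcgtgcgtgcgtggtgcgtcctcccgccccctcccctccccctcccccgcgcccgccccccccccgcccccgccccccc
ZMYM3 at chrX:71255198-71255447, minus strand: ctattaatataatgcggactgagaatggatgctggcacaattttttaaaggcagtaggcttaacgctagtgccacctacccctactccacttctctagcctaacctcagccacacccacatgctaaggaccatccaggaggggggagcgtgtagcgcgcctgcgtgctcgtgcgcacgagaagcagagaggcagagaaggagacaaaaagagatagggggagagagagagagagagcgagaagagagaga
HDAC1 at chr1:32291833-32292082, plus strand: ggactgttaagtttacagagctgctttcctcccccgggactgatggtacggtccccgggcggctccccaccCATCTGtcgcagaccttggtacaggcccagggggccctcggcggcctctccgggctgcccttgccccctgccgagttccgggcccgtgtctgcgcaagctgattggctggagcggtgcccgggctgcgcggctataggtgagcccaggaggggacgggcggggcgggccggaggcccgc
The core, read on both strands as CATCTG or CAGATG, was in 4 of the 22 windows annotated for the 10 genes (2 of ZBTB18, 1 of HDAC1 and 1 of EHMT2). It was in 12.2% of all 35116 promoters of this length. The longer form ACATCTG, which contains the core and was also read on both strands, was in 1 of the 22 windows, the ZBTB18 window above, where the core begins 97 bases before the start, and in 2.83% of all promoters. None of the 3 ZMYM3 windows held these letters. Such a match is a description of the letters, and binding was not measured.

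The libraries were shallow. The SF-mut libraries carry the barcode names of EV with a suffix, and a separate sample sheet lists them with the SF-Nte libraries, which also stand in the sheet of the other groups. Any difference in handling that goes with these sheets cannot be told apart from the SF-mut construct, and whether it touches SF-Nte was not tested. Totals ran from 315693 to 603155 counts in the 6 libraries of the short forms (SF-mut and SF-Nte), from 803316 to 1393060 in the 6 of the long forms (FL-mut and FL) and from 1274474 to 1930245 in EV. A total of 3 counts, the limit that a count of 0 allows, correspond to between 1.473 and 9.06 CPM in a library, where CPM is a gene's count scaled by TMM to a common library size. Of the 10 genes, 9 were deep enough to be tested among 6767 genes, and RCOR1 was not. Of the markers of glioma and astroglial lines, VIM and CD44, which other mesenchymal cells also express, led a summed level of 193 to 1100 CPM. NES and SOX2 had counts in every library (medians 13.58 and 10.72 CPM), whereas GFAP and S100B were at 0 in the median library. Summed immune markers reached at most 30.2 CPM, epithelial markers 12.2, endothelial markers 21.0, oligodendrocyte markers 7.86 and neuron markers 27.7. The neuron list was led by GAD1 and ran from 4.81 to 26.2 CPM in SF-mut, 0 to 27.7 in SF-Nte, 13.8 to 19.8 in FL-mut, 1.22 to 6.65 in FL and 0 to 3.49 in EV, and its part in the results was not tested. In bulk RNA, fewer cells of a type and less RNA per cell cannot be told apart.

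**Figure D1:**
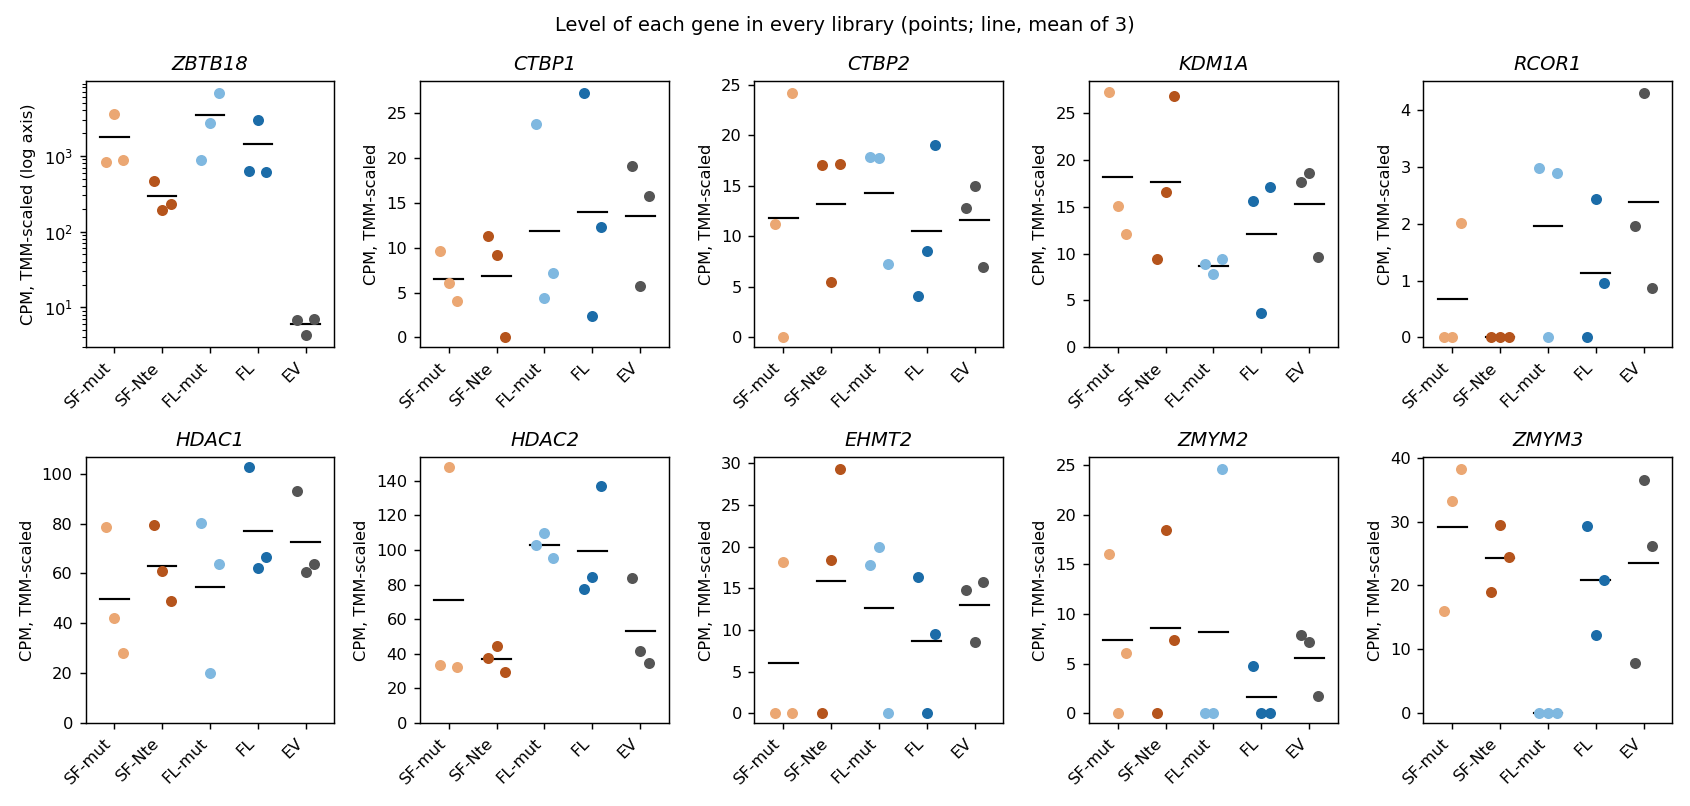
Level of each of the 10 genes in every library, in TMM-scaled CPM on the vertical axes (log axis for ZBTB18, linear axes otherwise), by group on the horizontal axes; points are libraries and lines are means of 3. ZBTB18 lies at 195.5 CPM or more in all 12 construct libraries and at 6.988 or less in EV, and ZMYM3 is at 0 in the 3 FL-mut libraries and in no other.

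ZBTB18 (chromosome 1, 244048939 to 244057476, plus strand, GRCh38) was far higher in every construct library than in any EV library. Its level was 836.9, 3557 and 879.3 CPM in SF-mut, 461.2, 195.5 and 229.7 in SF-Nte, 889.8, 2747 and 6734 in FL-mut, 623.3, 3009 and 611.7 in FL, and 6.872, 4.29 and 6.988 in EV. The 12 construct libraries did not overlap EV, a separation that 0.369% of tested genes showed in either direction. For a single construct group against EV it was far more frequent, at 10.6% of tested genes in SF-mut, 17.3% in SF-Nte, 17.4% in FL-mut and 16.9% in FL. The counts cannot tell the vector's ZBTB18 transcript from the cell's own, and the EV level rests on 28 counts in all.

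How evenly the constructs were expressed bears on every comparison between them. FL-mut had the highest mean, 3457 ± 2986 CPM (SD, n = 3), followed by SF-mut with 1758 ± 1559, FL with 1415 ± 1381 and SF-Nte with 295.5 ± 144.6, against 6.05 ± 1.525 in EV. Within a group the highest library exceeded the lowest by 4.251-fold in SF-mut, 2.359-fold in SF-Nte, 7.568-fold in FL-mut, 4.92-fold in FL and 1.629-fold in EV. In that order of means only the neighbours FL and SF-Nte, and SF-Nte and EV, had libraries that did not overlap. In the edgeR fit over all 15 libraries, with p-values adjusted over all tested genes and called below 0.05, ZBTB18 was higher than in EV by a log2 fold change of 8.15 ± 1.02 in SF-mut (SE; adjusted p = 0.00461), 5.58 ± 0.94 in SF-Nte (0.0492), 9.12 ± 1.06 in FL-mut (0.00166) and 7.83 ± 1.01 in FL (0.0013). The SF-Nte call was lost without SF-Nte replicate 1 or 3 or any 1 EV library (adjusted p from 0.145 to 0.283), with DESeq2 size factors in edgeR (0.0837) and without TMM scaling (0.066).

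No difference in ZBTB18 between constructs was called. SF-mut was above SF-Nte by 2.57 ± 0.77 (log2; interval 0.93 to 4.21; edgeR adjusted p = 0.575), and SF-Nte was below FL by a log2 fold change of -2.26 ± 0.76 (interval -3.88 to -0.64; adjusted p = 0.189). FL-mut exceeded FL by 1.29 ± 0.73 (adjusted p = 0.50) and SF-mut lay -0.98 ± 0.73 from FL-mut (0.761). Without FL replicate 2, the library with most ZBTB18 in its group, SF-Nte against FL was -1.06 and FL-mut against FL was 2.48 (log2), and without FL-mut replicate 3 FL-mut against FL was 0.36. Without SF-mut replicate 2, SF-mut against SF-Nte was 1.52 and SF-mut against FL-mut was -2.03, and without FL-mut replicate 3 the last was -0.05. Each of the 4 construct differences was called in the fit without a filter on low counts. In the order of their first mention, the edgeR adjusted p was 1.33e-10, 2.23e-09, 0.00191 and 0.0301. In that order this fit called 193, 301, 348 and 134 of all genes. The fit with the filter called 0, 72, 6 and 11. The 3 SF-mut libraries lay above all 3 SF-Nte libraries, in a comparison where 12.4% of tested genes did not overlap, and the 3 SF-Nte libraries lay below all 3 FL libraries, where the share was 24.4%.

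Counted over the 9 tested genes, calls were few. Both ZBTB18 and ZMYM3 were called in FL-mut against EV, where 0.192% of all tested genes were called. ZBTB18 was the 1 gene called in SF-mut, SF-Nte and FL against EV, where the share of all genes was 0.0591%, 0.0443% and 0.310%. It was also the 1 gene called in all constructs together against EV (0.222%, log2 fold change 7.67 ± 0.97, edgeR adjusted p = 0.00127). The constructs carry ZBTB18, so its rise over EV was set by the design. No partner was called in SF-mut, SF-Nte or FL against EV (lowest edgeR adjusted p 0.997, 0.900 and 0.791). ZMYM3 was the 1 gene called in FL-mut against FL (0.0887%) and in SF-mut against FL-mut (0.163%). No member was called in SF-Nte against FL, where 1.06% of all genes were, in the interaction of mutation and form (0.0296%), or in SF-mut against SF-Nte, where edgeR called 0% of all genes, with 562 of 6767 at an unadjusted p under 0.05 and 4 called by DESeq2. These comparisons share libraries: the 4 against EV use the same 3 EV libraries.

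ZMYM3 (chromosome X, 71239624 to 71255146, minus strand, GRCh38), a zinc finger protein found in LSD1 and HDAC complexes, had 0 counts in every FL-mut library. Its counts were 10, 11 and 19 in SF-mut, 10, 16 and 10 in SF-Nte, 0, 0 and 0 in FL-mut, 43, 10 and 22 in FL, and 16, 51 and 30 in EV. FL-mut was the only group with a library at 0, and each of the other 12 libraries held at least 10 counts. Separation of FL-mut from FL was in itself frequent, at 18.4% of tested genes. In CPM the levels were 16.03, 33.22 and 38.23 in SF-mut, 18.9, 29.51 and 24.43 in SF-Nte, 29.26, 12.2 and 20.9 in FL, and 7.854, 36.46 and 26.2 in EV. The 4 groups with reads overlapped one another, with means of 29.16 ± 11.64 in SF-mut, 24.28 ± 5.305 in SF-Nte, 20.79 ± 8.527 in FL and 23.51 ± 14.49 in EV (SD, n = 3).

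Taking 3 counts over the 3 FL-mut libraries as the limit (0.9116 CPM), the FL-mut level lay at least 25.8-fold below EV, 22.8-fold below FL, 26.6-fold below SF-Nte and 32.0-fold below SF-mut, each figure being a lower bound. The edgeR adjusted p was 0.0208 for FL-mut against EV, 0.0197 for FL-mut against FL and 0.027 for SF-mut against FL-mut. DESeq2 gave adjusted p of 4.37e-05, 0.000183 and 1.9e-05 for these 3 comparisons. In the same order DESeq2 called 145, 116 and 117 of all genes, where edgeR called 13, 6 and 11. The FL-mut libraries held 921436, 865997 and 1313573 counts, each more than any of the 6 short-form libraries, which all had ZMYM3 counts. Among the 6767 tested genes, ZMYM3 was the 1 gene at 0 in all FL-mut libraries and above 0 in all 12 others. The same search found 7 such genes for SF-mut, 8 for SF-Nte, 0 for FL and 0 for EV. None of them had at least 10 counts in every other library. That limit equals the lowest ZMYM3 count outside FL-mut, so this search describes the pattern of ZMYM3 and is no separate test.

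These ZMYM3 calls depend on single libraries although the zeros do not. FL-mut against EV was no longer called without FL-mut replicate 1 (edgeR adjusted p = 0.0729), FL-mut replicate 3 (0.0765), EV replicate 2 (0.0582) or EV replicate 3 (0.0987). FL-mut against FL was no longer called without FL replicate 3 (0.0632) or any 1 of the FL-mut libraries (0.0654, 0.0723 and 0.105), and SF-mut against FL-mut without FL-mut replicate 1 (0.0817) or 3 (0.0765) or SF-mut replicate 2 (0.0697) or 3 (0.151). Fits restricted to the libraries of the groups compared gave adjusted p of 0.184, 0.151 and 0.298. The same fits call few genes of any kind, as 3, 0 and 0 of all genes passed in them.

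Whether the mutation acted on ZMYM3 differently in the short and the long form was tested as an interaction. SF-mut differed from SF-Nte by a log2 fold change of 0.25 ± 0.65 (interval -1.14 to 1.64; adjusted p = 0.956), whereas FL-mut had no reads against FL. The interaction had an unadjusted p of 5.32e-05 and an edgeR adjusted p of 0.12. It was called by DESeq2 (0.00391) and in the fit without a filter on low counts (0.00305). For the interaction these 2 fits called 8 and 49 of all genes, where edgeR with the filter called 2. Against EV, neither SF-mut (0.31 ± 0.63), SF-Nte (0.06 ± 0.63) nor FL (-0.15 ± 0.61) was called for ZMYM3, and no gene of the annotation overlaps its locus.

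**Figure D2:**
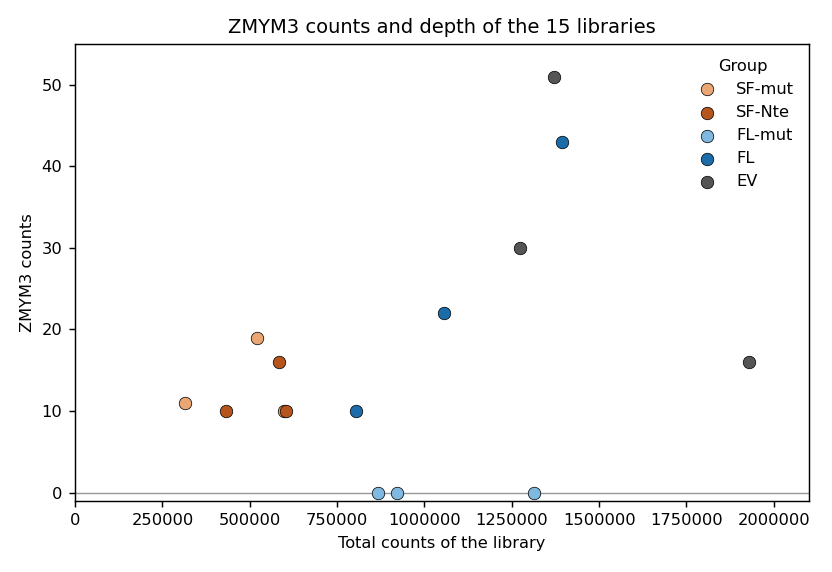
ZMYM3 counts (vertical axis) against the total counts of the library (horizontal axis), 1 point per library, coloured by group. The 3 FL-mut libraries lie at 0 with totals of 865997 to 1313573, and the 6 short-form libraries have 10 to 19 ZMYM3 counts with totals of 315693 to 603155.

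ZMYM2 (chromosome 13, 19958670 to 20091829, plus strand), the close relative of ZMYM3 in the same complexes, was sparse. Its counts were 10, 0 and 3 in SF-mut, 0, 10 and 3 in SF-Nte, 0, 0 and 34 in FL-mut, 7, 0 and 0 in FL, and 16, 10 and 2 in EV. Libraries at 0 occurred in all 4 construct groups, and FL-mut replicate 3 alone held 34 of its 95 counts. Its biological coefficient of variation, the spread between libraries that the fit estimates beyond counting error, was 143.1%, against a median of 49.74% over tested genes and 49.66% for ZMYM3. No comparison was called, and the interval of FL-mut against EV, -2.67 to 3.81 on the log2 scale, shows how little these counts can separate.

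The CtBP corepressors themselves did not pass the test in any comparison. CTBP1 (chromosome 4, 1211448 to 1249953, minus strand) had 9.619, 6.04 and 4.024 CPM in SF-mut, 11.34, 9.222 and 0 in SF-Nte, 23.78, 4.442 and 7.24 in FL-mut, 27.22, 2.441 and 12.35 in FL, and 19.14, 5.72 and 15.72 in EV. All groups overlapped, and the log2 fold change against EV ran from -1.01 ± 0.996 in SF-mut to 0.07 ± 0.89 in FL. CTBP2 (chromosome 10, 124984317 to 125161170, minus strand) had 11.22, 0 and 24.14 CPM in SF-mut, 17.01, 5.533 and 17.1 in SF-Nte, 17.83, 17.77 and 7.24 in FL-mut, 4.082, 8.543 and 19 in FL, and 12.76, 15.01 and 6.988 in EV. Its log2 fold change against EV stayed between -0.15 ± 0.83 in FL and 0.28 ± 0.82 in FL-mut, and its widest interval against EV was -1.65 to 1.99, in SF-Nte. An exon of ZRANB1 overlaps CTBP2 on the opposite strand (31 counts for ZRANB1 in all), 8 CTBP2 pseudogenes are annotated, and whether counting used strand is not given in the sources used here, so CTBP2 values carry that uncertainty. Antisense genes with overlapping exons are also annotated for CTBP1, HDAC2 and EHMT2, and 2 pseudogenes for HDAC1, of which 1 was counted apart.

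KDM1A (chromosome 1, 23019443 to 23083689, plus strand), which encodes the demethylase LSD1, was measured in all 15 libraries at between 3 and 36 counts. It had 27.25, 15.1 and 12.07 CPM in SF-mut, 9.451, 16.6 and 26.87 in SF-Nte, 8.917, 7.773 and 9.412 in FL-mut, 15.65, 3.661 and 17.1 in FL, and 17.67, 18.59 and 9.608 in EV. The FL-mut libraries lay below all EV and all SF-mut libraries, narrowly so for FL-mut replicate 3 (9.412 CPM) and EV replicate 3 (9.608 CPM). A separation of this kind was seen for 17.4% of tested genes in FL-mut against EV and 13.6% in SF-mut against FL-mut. Neither difference was called: FL-mut against EV gave -0.81 ± 0.62 (log2; edgeR adjusted p = 0.699), and SF-mut against FL-mut 1.06 ± 0.65 (0.652).

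RCOR1 (chromosome 14, 102592661 to 102730576, plus strand), which encodes CoREST, was close to the limit of what these libraries can show. It had 22 counts in all: 0, 0 and 1 in SF-mut, 0, 0 and 0 in SF-Nte, 3, 0 and 4 in FL-mut, 0, 2 and 1 in FL, and 4, 6 and 1 in EV. EV was the group with reads in every library, and it also holds the deepest library. The EV mean of 2.376 CPM, from 11 counts, is close to the limit of 3 counts over SF-Nte (2.026 CPM), and in the fit without a filter no comparison of RCOR1 was called (SF-Nte against EV, unadjusted p = 0.0732).

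The deacetylases were the most abundant partners by counts. HDAC1 (chromosome 1, 32292086 to 32333635, plus strand) had 78.56, 42.28 and 28.17 CPM in SF-mut, 79.39, 60.86 and 48.86 in SF-Nte, 80.26, 19.99 and 63.71 in FL-mut, 102.7, 62.24 and 66.49 in FL, and 93.26, 60.77 and 63.76 in EV. Its groups overlapped throughout, and its intervals were among the narrowest of the partners, from -0.94 to 1.12 in FL against EV and from -1.60 to 0.53 in SF-mut against EV. HDAC2 (chromosome 6, 113933028 to 114011308, minus strand) had more counts in all (1073, against 979 for HDAC1). It had 33.67, 148 and 32.19 CPM in SF-mut, 37.8, 44.26 and 29.32 in SF-Nte, 103.0, 109.9 and 95.57 in FL-mut, 77.57, 84.21 and 136.8 in FL, and 83.94, 41.47 and 34.94 in EV.

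All FL-mut libraries lay above all EV libraries for HDAC2, as 17.4% of tested genes were without overlap there, and all SF-Nte libraries lay below all FL libraries (24.4%). The log2 fold change was 0.94 ± 0.53 in FL-mut against EV (edgeR adjusted p = 0.559), 0.89 ± 0.53 in FL against EV (0.791) and -1.41 ± 0.55 in SF-Nte against FL (interval -2.58 to -0.24; unadjusted p = 0.0212, adjusted p = 0.273). The last is the 1 comparison of 70 over the 7 tested partners other than ZMYM3 with an unadjusted p under 0.05, a share of 1.43%. Over all tested genes the share was 8.4%, and in SF-Nte against FL 890 of 6767 genes had such a p. Neither edgeR nor DESeq2 called any of the 70. The SF-Nte libraries held 432611 to 603155 counts against 803316 to 1393060 in FL, and the glioma marker list summed to 832 to 989 CPM against 193 to 434, with VIM higher in SF-Nte by 1.75 ± 0.38 (adjusted p = 0.0362). Their part in the HDAC2 difference was not tested. SF-mut replicate 2, the library with the fewest counts (315693), stood apart from the other SF-mut libraries with 148 CPM from 49 counts, and it also had the highest ZBTB18 level of its group.

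**Figure D3:**
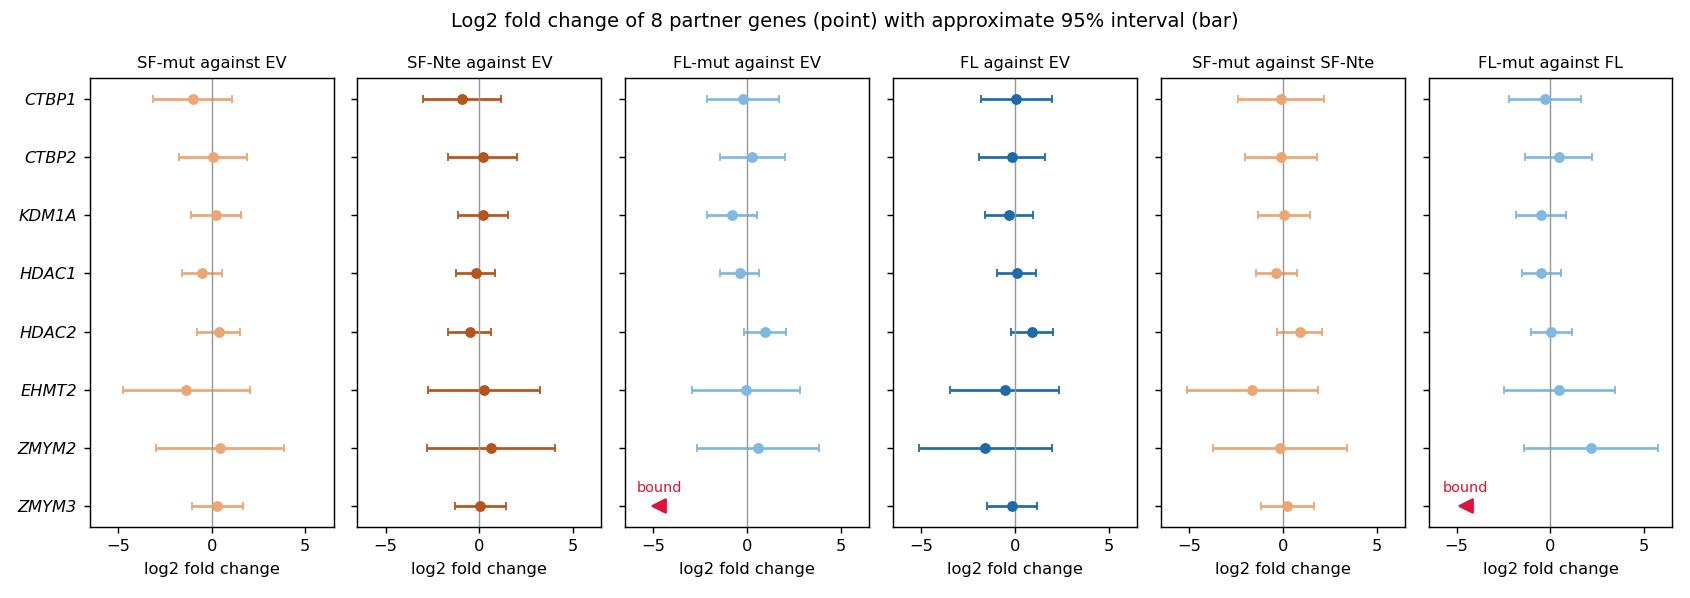
Log2 fold change (horizontal axes) of the 8 tested partners, in the 4 construct groups against EV and in each mutant against its own form. Points have approximate 95% intervals as bars. For ZMYM3, at 0 in FL-mut, red arrowheads mark the limit from 3 counts, 25.8-fold below the EV mean and 22.8-fold below the FL mean. The arrowheads leave out the spread between libraries. Intervals of the 7 other partners include 0 in these 6 comparisons; SF-Nte against FL, where that of HDAC2 does not, is not drawn.

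The balance within each pair of related genes was read from their shares of the pair's counts. HDAC2 made up 30.0%, 77.8% and 53.3% of HDAC1 plus HDAC2 counts in SF-mut, 32.3%, 42.1% and 37.5% in SF-Nte, 56.2%, 84.6% and 60.0% in FL-mut, 43.0%, 57.5% and 67.3% in FL, and 47.4%, 40.6% and 35.4% in EV. All 3 FL-mut libraries were above all 3 EV libraries, and the SF-Nte libraries overlapped EV. How often shares of other pairs separate these groups was not tested. For levels of single genes, 17.4% of tested genes did not overlap between FL-mut and EV. Over the 12 construct libraries the HDAC2 share was 53.5% ± 17.4, against 41.1% ± 6.0 in EV (SD, n = 3), a difference of 12.4 percentage points (exact permutation test, two-sided, p = 0.251). The CTBP2 share was 55.1% ± 29.3 in constructs and 47.7% ± 21.9 in EV (difference 7.38, exact p = 0.686), resting on as few as 2 counts for a pair. The ZMYM3 share of ZMYM2 plus ZMYM3 was 76.1% ± 31.9 over the 10 construct libraries with any read of the pair and 75.8% ± 22.9 in EV (difference 0.297, exact p = 0.846). By group it was 78.8% ± 25.8 in SF-mut, 79.5% ± 19.4 in SF-Nte and 95.3% ± 8.08 in FL (SD, n = 3). In FL-mut it was 0% in the 1 library with counts of the pair (34, all ZMYM2), and the other 2 had none.

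**Figure D4:**
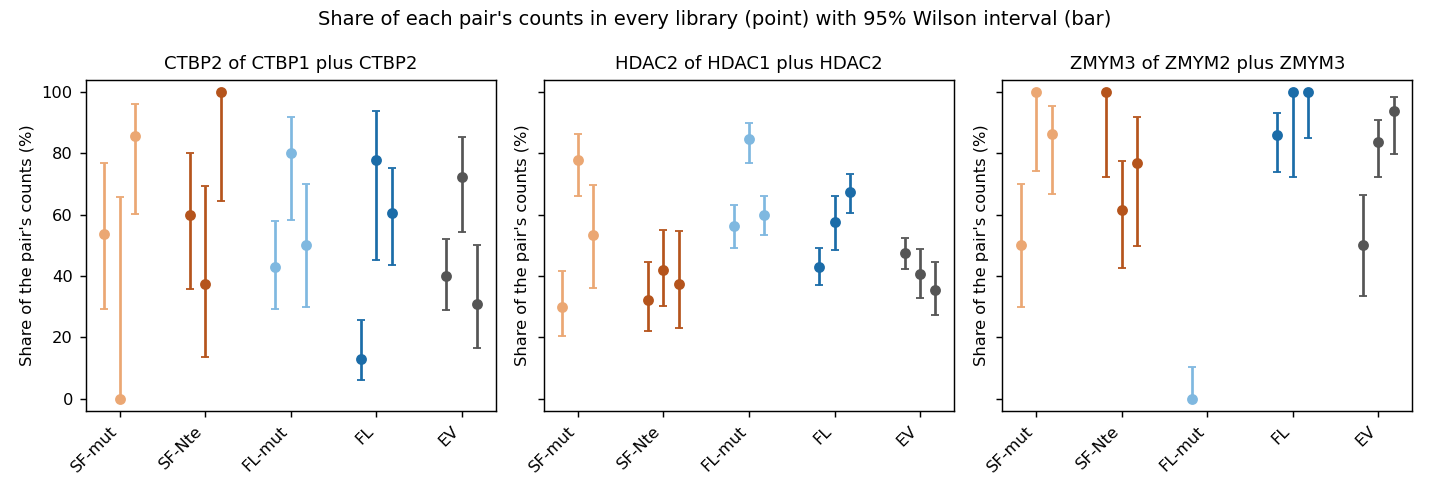
Share of each pair's counts (vertical axes, percent) taken by CTBP2, HDAC2 and ZMYM3 in every library by group; points are libraries and bars are 95% Wilson intervals, which cover counting error only. The HDAC2 share is 56.2% to 84.6% in FL-mut against 35.4% to 47.4% in EV, a difference that was not tested. For ZMYM3, 2 FL-mut libraries have no point.

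EHMT2 (chromosome 6, 31879759 to 31897687, minus strand), the methyltransferase G9a, varied between 0 and moderate counts within groups. It had 0, 6 and 0 counts in SF-mut, 0, 10 and 12 in SF-Nte, 18, 18 and 0 in FL-mut, 24, 0 and 10 in FL, and 30, 12 and 18 in EV. All 3 EV libraries had reads, while each construct group had at least 1 library at 0. EV also holds the deepest library, and the part of depth in these zeros was not tested. Every count was even, and 8 of the 10 above 0 were multiples of 6; of the 6723 tested genes above 0 in at least 8 libraries, 158 (2.35%) had counts that share a divisor above 1. The coefficient of variation was 127.2%, higher than in 98.3% of tested genes. No comparison was called, with a log2 fold change of -1.35 ± 1.59 in SF-mut against EV (interval -4.73 to 2.03) and 0.26 ± 1.40 in SF-Nte against EV.

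In EV cells, HDAC1 averaged 72.6 ± 17.96 CPM and HDAC2 53.45 ± 26.6 (SD, n = 3), above KDM1A at 15.29 ± 4.942. Divided by the length of the longest coding transcript, HDAC1 stood at 34.2 ± 8.45 CPM per kilobase, HDAC2 at 5.41 ± 2.69, KDM1A at 5.0 ± 1.62, ZMYM3 at 3.87 ± 2.39, CTBP1 at 3.18 ± 1.64 and EHMT2 at 3.15 ± 0.937. CTBP2 was at 1.67 ± 0.597, the cell's ZBTB18 at 1.57 ± 0.396, ZMYM2 at 0.547 ± 0.328 and RCOR1 at 0.413 ± 0.303. The choice of scale sets this order: a long read can span a whole transcript, and dividing by length lowers genes with a long transcript such as HDAC2 (9874 bases, against 2124 for HDAC1) and ZMYM2 (10200 bases).

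The surrounding pathway was read from 6 lists of related genes, in which edgeR called no gene in any of the 10 comparisons. Over all tested genes and these comparisons, 8.4% of tests had an unadjusted p under 0.05, the share against which the counts of the lists stand. Of these 67670 tests edgeR called 147 and DESeq2 923, so few or no calls in a short list is common to most genes. Of the other CtBP, LSD1 and CoREST subunits and recruiters, 7 were tested, 5 of 70 tests had an unadjusted p under 0.05 and DESeq2 called 0. Their median log2 fold change over all constructs against EV was -0.18, against -0.06 for all tested genes. The lowest p was that of CDYL, a chromodomain protein of CtBP complexes, with 1.07 ± 1.85 CPM in SF-mut and 16.5 ± 7.13 in EV (log2 fold change -3.53 ± 0.95, unadjusted p = 0.00199, adjusted p = 0.422). It had 10.1 ± 0.855 CPM in SF-Nte, 7.80 ± 0.876 in FL-mut and 11.3 ± 6.18 in FL.

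Among 4 tested relatives of ZMYM2 and ZMYM3, including QRICH1, which lacks the MYM-type fingers, 0 of 40 tests had an unadjusted p under 0.05, and DESeq2 called 0; ZMYM6 had the lowest p, with 3.35 ± 1.87 CPM in FL and 10.7 ± 3.47 in EV (-1.60 ± 0.86, adjusted p = 0.745). In the NuRD and SIN3 complexes, which also use HDAC1 and HDAC2, 13 genes were tested and 7 of 130 tests had an unadjusted p under 0.05, with 0 called by DESeq2. MBD3, a NuRD subunit, had 2.41 ± 2.13 CPM in SF-mut and 28.7 ± 11.8 in EV (-3.37 ± 1.07, adjusted p = 0.595). For a list of 12 other methylation enzymes, mostly of histones but with the DNA methyltransferases DNMT1 and DNMT3A, 2 of 120 tests had an unadjusted p under 0.05 and DESeq2 called 0. EED, a subunit of the Polycomb methyltransferase complex, had 76.7 ± 39.0 CPM in SF-mut and 34.0 ± 4.06 in FL-mut (1.19 ± 0.47, adjusted p = 0.419).

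In the list of NCoR/SMRT subunits and other histone deacetylases, 10 genes were tested and 9 of 100 tests had an unadjusted p under 0.05. DESeq2 called 2 of the 100, both of them TBL1XR1, in FL-mut against EV and FL-mut against FL. In these comparisons DESeq2 called 145 and 116 of all 6767 tested genes. TBL1XR1, a subunit of the NCoR corepressor, had 19.3 ± 5.43 CPM in FL-mut, 91.4 ± 58.5 in FL and 98.9 ± 54.3 in EV. Its log2 fold change was -2.33 ± 0.61 in FL-mut against EV (edgeR adjusted p = 0.17) and -2.23 ± 0.61 against FL (0.24), and SF-mut (61.6 ± 34.0 CPM) and SF-Nte (63.9 ± 23.0) lay between. Of the other BTB-zinc finger genes only 3 were deep enough to test, with 6 of 30 tests at an unadjusted p under 0.05 and 0 called by DESeq2. ZBTB38, a zinc finger protein that binds methylated DNA, had the lowest p of all 6 lists: 0.671 ± 1.16 CPM in SF-mut, 4.33 ± 4.64 in SF-Nte, 4.07 ± 1.93 in FL-mut, 2.17 ± 2.35 in FL and 21.8 ± 7.84 in EV. All constructs against EV gave -3.17 ± 0.70 (unadjusted p = 0.000381, adjusted p = 0.119).

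The genes whose pattern over the 15 libraries was most like that of ZBTB18 were ADD3, KDELR3 and AKTIP, with a mean absolute difference of standardized log2 values of 0.465, 0.483 and 0.527, against a median of 1.15 over 6766 genes. ADD3 averaged 7.84 ± 1.34 CPM in SF-mut, 3.12 ± 2.88 in SF-Nte, 8.74 ± 0.753 in FL-mut, 13.2 ± 0.258 in FL and 1.18 ± 0.68 in EV. Most like ZMYM3 were BLVRA (0.36), TMSB15B (0.366) and BPNT1 (0.382), where the median was 1.14. BPNT1 averaged 58.1 ± 14.1 CPM in SF-mut, 75.2 ± 3.14 in SF-Nte, 24.9 ± 2.3 in FL-mut, 84.0 ± 12.6 in FL and 81.7 ± 33.4 in EV, and each of the 3 genes had its lowest mean in FL-mut without being at 0 there. The likeness is a description of these libraries, chosen as the smallest of many.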

How the data were processed

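Polyadenylated RNA was measured with Oxford Nanopore PCR-cDNA libraries, per the labels' protocols. The authors deposited raw counts of reads for each gene symbol. The build was GRCh38 per the submitters' processing notes. For the aligner, the counting tool and the use of strand, nothing is given in the sources used here. PCR without molecular identifiers can alter a gene's share, so the Wilson intervals and the limits from 3 counts cover counting error only. The 2 deposited sample sheets entered no computation. From the counts, edgeR 4.0.16 (R 4.3.3) was fitted to all 15 libraries with TMM scaling, filterByExpr (minimum count 10, minimum total 15), 1 coefficient per group and the robust quasi-likelihood test. Of 18485 genes, 6767 were tested, with Benjamini-Hochberg adjustment over all of them and a threshold of 0.05. CPM use the totals over all genes. Standard errors are the log2 fold change over the square root of F, and intervals are approximate 95% intervals. All constructs against EV compares the mean of the 4 construct groups with EV.

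Gene positions are from GENCODE v29 (GRCh38). The members and lists were chosen with earlier results of these data known. The text names the 10 members, genes of the lists that passed or had the lowest p of their list, and the 3 genes most like ZBTB18 and ZMYM3. Alternatives were DESeq2 1.42.0, other scalings, no filter, the compared groups alone, a replicate block and leaving out each library. Same-numbered FL and EV libraries deviated together (correlations 0.365, 0.155 and 0.518 over 2057 genes), a pairing read from the data. So did FL and SF-mut (0.156, 0.162 and 0.359), which meet in the interaction and the all-construct comparison. The other pairs of groups did not exceed 0.1 in all 3 pairs. The highest single correlations were between FL-mut and SF-mut, at 0.603 and 0.674 for replicates 1 and 2 but 0.0397 for replicate 3. These groups meet in SF-mut against FL-mut, where ZMYM3 was called. Chi-square per gene between libraries of a group was 3.83 or more, so none was a duplicate. The method was tested on simulated counts with known fold changes in FL-mut. That simulation neither emptied a group of counts nor linked libraries, so it does not bear on these features of the data.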

Additional observations from a re-analysis of the deposited data

How the results depend on the processing

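The counts of members called changed under some alternatives. FL-mut against EV called 2 members, and 1 when fitted on the compared groups alone. SF-Nte against EV called 1, and 0 with DESeq2 size factors or without TMM. FL-mut against FL called 1, 2 without the filter on low counts, and 0 on the compared groups alone, as did SF-mut against FL-mut (1, 2 and 0). Without the filter, SF-mut against SF-Nte, SF-Nte against FL and the interaction each called 1 in place of 0. Of all genes, the fit without the filter called 193, 301 and 49 there, where the main fit called 0, 72 and 2. For FL-mut against FL and SF-mut against FL-mut it called 348 and 134 of all genes, against 6 and 11. DESeq2 called 1 member for the interaction, and 8 of all genes. Leaving out each library gave 1 to 2 members for FL-mut against EV, 0 to 1 for SF-Nte against EV, 0 to 1 for FL-mut against FL and 0 to 1 for SF-mut against FL-mut. The cause was not tested. Over single members and comparisons, 1169 results stayed on their side of the threshold, 22 lost and 6 gained a call, and 0 of the called results turned round. The replicate block changed no member's call in any comparison; for ZMYM3 it gave an adjusted p of 0.0238 (FL-mut against EV), 0.0295 (FL-mut against FL) and 0.0255 (SF-mut against FL-mut), and for the paired FL and EV it called 25 genes in place of 21. The 3 share differences stayed short of the threshold in the exact permutation test when any 1 library was left out. With counts summed over the libraries of each side no p-value was computed. Each difference then moved by less than the SD of the construct libraries. For all genes, DESeq2 called 140, 145, 31 and 26 against EV in FL, FL-mut, SF-Nte and SF-mut, where edgeR called 21, 13, 3 and 4. Without TMM the median of all genes shifted by 0.146 for SF-mut against SF-Nte, -0.16 for SF-Nte against FL and -0.113 for SF-Nte against EV, and uncalled members near 0 changed sign: EHMT2, ZMYM3, CTBP1, CTBP2 and ZMYM2, in 1 comparison each. RCOR1 had too few counts to test, and for ZMYM2, EHMT2, KDM1A and both CtBP genes changes of several fold lie within the intervals. The deacetylase intervals were wide as well, reaching 2.05 for HDAC2 in FL-mut against EV and -1.60 for HDAC1 in SF-mut against EV (log2).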
